A study of Mus musculus with 32 samples.

Results

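Toll-like receptors (TLRs) and the proteins that pass on their signal were followed through mouse bone marrow as 10 genes: the cell surface receptors Tlr1, Tlr2, Tlr4 and Tlr6, the endosomal receptors Tlr7 and Tlr9, the co-receptors Cd14 and Ly96, the adaptor Myd88 and the kinase Irak4. They were taken by symbol from the 24421 genes of the raw count table, not by their values, and all 10 were found there. All 10 passed the filter on low counts that left 14154 genes for testing, Tlr9 through the CLP libraries, since it had 211 counts in all 32 libraries together. RNA had been sequenced from 8 sorted fractions of bone marrow of female C57BL/6 mice without further treatment, at 10 weeks (young) and at 20 months (aged), with 2 libraries in each of the 16 groups. The 2 ages were sorted with the same gates and differ in age alone per the labels. The study's methods describe a pool of marrow for each age from which duplicates were sorted, and elsewhere speak of biological duplicates, so errors and p-values may cover technical spread only.

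The gates limit what each group can stand for. Hematopoietic stem cells (HSCs) and the multipotent progenitors MPP1 to MPP4 were lineage-negative, Sca-1+ and c-kit+. Among them HSCs were CD34- CD150+ CD48- Flt3-, MPP1 differed by CD34+, MPP2 by CD34+ and CD48+, and MPP3 by CD34+ and CD48+ without CD150. MPP4 were set apart by Flt3+ and were not otherwise like HSCs. Young MPP4 had mean CPM of 1593 for Cd34, 111 for Cd48 and 0.321 for Slamf1, the gene of CD150. Granulocyte and macrophage progenitors (GMPs) were Sca-1- c-kit+ FcgR+ CD34+, megakaryocyte and erythrocyte progenitors (MEPs) Sca-1- c-kit+ FcgR- CD34-, and common lymphoid progenitors (CLPs) IL-7 receptor positive with low Sca-1 and c-kit. The paper's stain for CLPs also held Flt3. No gate used a TLR, CD14 or MD-2.

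TLRs recognise conserved molecules of microbes. TLR2 pairs with TLR1 or TLR6 to bind bacterial lipopeptides, TLR4 binds lipopolysaccharide together with MD-2, the product of Ly96, to which CD14 hands the ligand, and TLR7 and TLR9 sense single-stranded RNA and CpG DNA in endosomes. All of these receptors signal through the adaptor MyD88, which recruits IRAK4, and lead to NF-kB and, in plasmacytoid dendritic cells, to interferon. Blood stem and progenitor cells carry TLRs themselves, and their ligands can drive such cells towards the myeloid lineage.

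Libraries held 11237384 to 17723245 counts. A count of 0 allows up to 3 counts, and such floors cover counting error only. Levels are given in CPM, the counts scaled to a common library total adjusted by TMM (trimmed mean of M-values), and for comparisons between genes in CPM per kilobase of exon. Of the sort antigens Il7r was highest in CLPs, Fcgr3 in GMPs and Flt3 in young MPP4, as the gates have it, and Cd34 was lowest in MEPs. CLPs also held markers of dendritic, B lineage and, in young mice, basophil cells, and young MEPs held B lineage markers (Cd79a at a mean of 55.5 CPM, against 0 in aged MEPs). In bulk RNA fewer cells of a type and less RNA per cell cannot be told apart.

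Transcripts of the adaptor Myd88 were present in every library at similar levels, whereas those of the receptors varied more between fractions. Tlr2, Tlr4 and Tlr6 were low in MEPs only, and Tlr1 and Tlr7 were concentrated in some fractions. Per kilobase, Myd88 was the most abundant of the 10 genes in all 16 groups, with 21.9 to 41.7 CPM per kilobase, and the highest levels of other genes in young cells were those of Tlr7 in CLPs (14.9), Tlr2 in HSCs (13.1) and GMPs (12.9) and Cd14 in GMPs (11.4). In all 8 young fractions Tlr9 stayed at or below 0.587 CPM per kilobase, a level it had in CLPs. With F-tests over the 8 fractions (edgeR quasi-likelihood, called at an adjusted p under 0.01), levels of 10 of 10 genes differed between young fractions, where 86.9% of all genes tested were called. In aged cells 9 of 10 did, beside 85.5% of all genes, and Myd88 was the exception (adjusted p = 0.0435). Both counts include Tlr9, which entered the test only because it was high in CLPs, so its call was fixed by the filter. Both shares leave little to read from the genes' own counts.

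**Figure D1:**
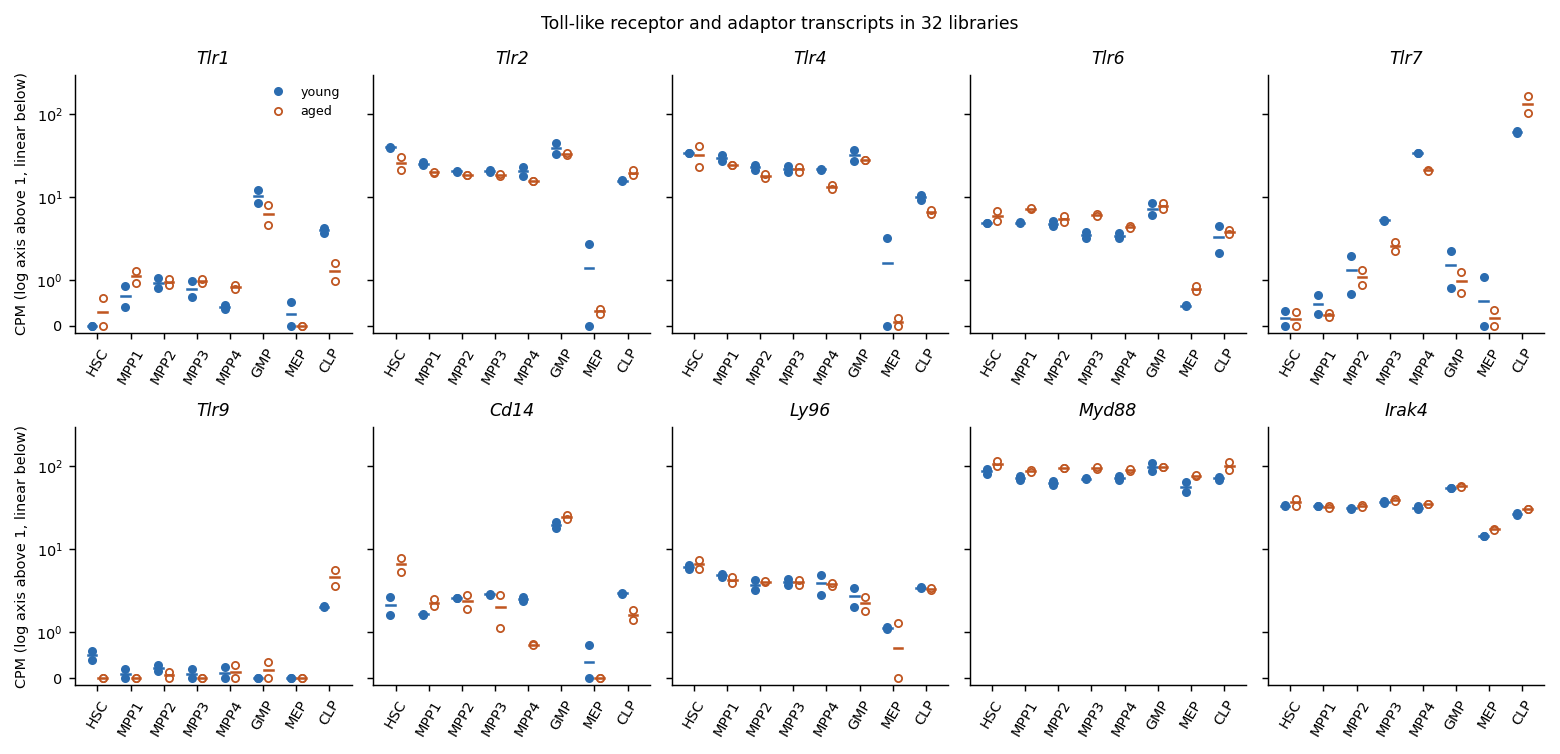
Level of each of the 10 genes in all 32 libraries, as CPM on an axis that is linear below 1 and logarithmic above, for 8 fractions of young (filled) and aged (open) mice, with a short line at the mean of each pair. Tlr2, Tlr4 and Tlr6 are present from HSCs to GMPs and lowest in MEPs, Cd14 peaks in GMPs (19.8 CPM in young and 24.4 in aged), Tlr7 climbs through MPP4 to CLPs, and Myd88 and Irak4 are present everywhere.

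Among the surface receptors, Tlr2 (chromosome 3, 83836272 to 83841767, minus strand, GRCm38) and Tlr4 (chromosome 4, 66827584 to 66930284, plus strand) followed nearly one pattern. In young cells Tlr2 was highest in HSCs (40.6 and 38.5 CPM) and GMPs (44.7 and 33), whose duplicates overlapped. MPP1 came next at 25.3 ± 1.28 (SD, n = 2), then MPP3, MPP4 and MPP2, which overlapped with each other at 20.4 to 20.7 CPM, then CLPs at 15.8 ± 0.363.

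Tlr4 had nearly the same order, with HSCs at 34.2 ± 0.014, GMPs at 31.9 ± 6.84 and MPP1 at 29.6 ± 3.78 overlapping at the top, MPP2, MPP3 and MPP4 between 21.5 and 22.7, and CLPs at 9.99 ± 0.997 CPM. MEPs were lowest for both. There the young duplicates disagreed: one library had 43 counts of Tlr2 and 50 of Tlr4 and the other had 0 of each, while the aged libraries had 4 and 3 counts of Tlr2 and 0 and 2 of Tlr4. Summed monocyte and macrophage markers were 27.7 and 33.9 CPM in the 2 young MEP libraries and 4.78 and 5.59 in the aged ones, and B lineage markers 211 and 205 against 1.22 and 0.861. Single markers also split between the 2 young libraries, with 36 and 0 counts of Adgre1, 21 and 0 of Ms4a1 and 23 and 58 of Cd68. The part of other cells in the Tlr2 and Tlr4 values was not tested.

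Tlr1 and Tlr6, which lie next to each other on the minus strand of chromosome 5 (64924679 to 64933563 and 64952031 to 64960097) and encode the partners of TLR2, differed in where they were found. Tlr6 followed Tlr2, with 7.21 ± 1.63 CPM in young GMPs, 4.77 to 4.88 in HSCs, MPP1 and MPP2, whose duplicates overlapped, 3.3 to 3.49 in MPP3, MPP4 and CLPs, which overlapped too, and 0.439 ± 0.0124 in MEPs. Tlr1 was low throughout the stem and multipotent cells, from 0 counts in both young HSC libraries to 0.937 ± 0.169 CPM in MPP2. It reached 10.3 ± 2.7 CPM in young GMPs and 3.96 ± 0.328 in CLPs, above all other young fractions.

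The co-receptors did not share a pattern. Cd14 (chromosome 18, 36725067 to 36726798, minus strand, 1 exon) was concentrated in GMPs, at 18.2 and 21.4 CPM in the young libraries, and all other young fractions lay at 0.359 to 2.94. Ly96 (chromosome 1, 16688051 to 16709611, plus strand) had another order, highest in HSCs at 6.11 ± 0.396 CPM and MPP1 at 4.88 ± 0.266. It was at 3.43 to 4.01 in MPP3, MPP4, MPP2 and CLPs, which overlapped in that order, 2.73 ± 1.03 in GMPs and 1.12 ± 0.0425 in MEPs. GMPs thus had the most Cd14, and apart from MEPs the lowest mean of Ly96. Their young Ly96 duplicates (1.99 and 3.46 CPM) overlapped with those of CLPs (3.37 and 3.48).

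The endosomal receptors were found on the lymphoid side. Tlr7 (chromosome X, 167304929 to 167330558, minus strand) was at 0.163 CPM in young HSCs. MPP1 held 0.47 CPM, MPP2 held 1.32, MPP3 held 5.27, MPP4 held 34.1 and CLPs held 60.8. The duplicates of MPP3, MPP4 and CLPs did not overlap with each other or with any lower fraction, whereas GMPs (1.52), MPP2, MEPs (0.544), MPP1 and HSCs overlapped from one to the next. Tlr9 (chromosome 9, 106222598 to 106226883, plus strand) had 25 and 25 counts in young CLPs, 5 and 9 in HSCs, at most 4 in any library of MPP1 to MPP4 and 0 in both libraries of GMPs and MEPs. Its level in young CLPs, 2.04 CPM, was at least 9.69-fold higher than the floor in GMPs. This is a description only, since Tlr9 passed the filter through the CLP libraries.

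Myd88 (chromosome 9, 119335934 to 119341411, minus strand) ranged only from 56.3 ± 11.1 CPM in young MEPs to 99.4 ± 15.8 in young GMPs. GMPs and HSCs (88 ± 8.62) overlapped above the rest, MPP1, MPP4, CLPs and MPP3 overlapped at 71.2 to 72.5, and MPP2 (63.1 ± 3.81) overlapped with MEPs. Irak4 (chromosome 15, 94543643 to 94581815, plus strand) was highest in young GMPs at 54.8 ± 0.16 CPM and lowest in MEPs at 14.4 ± 0.222, with the other fractions between 26.5 and 36.9. GMPs did not overlap with MPP3, the next in rank, nor CLPs with MEPs.

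The genes whose means over the 16 groups were most like each member are given as a description, since all points share libraries. Pearson's r of mean log2 CPM over 16 groups was 0.97 between Tlr2 and Tlr4, 0.932 between Tlr2 and Tlr6 and 0.914 between Tlr4 and Tlr6, whereas Tlr1 and Tlr2 had 0.492. Among all genes tested, Tlr2 was most like B4galt4 (0.99) and Alox5ap (0.987), the latter needed for leukotriene synthesis, and Tlr4 like Serpinf1 (0.991) and Mctp1 (0.987). Tlr6 was most like Uap1l1 (0.977), Tlr1 like the circadian repressor Cry1 (0.972), Cd14 like Nlrx1 (0.963), Ly96 like Tmem176a (0.98) and Irak4 like Pgap2 (0.987). Tlr7 was most like Kcng1 (0.959) and Tlr9 like Adamtsl2 (0.961). Myd88 had no close match, with 0.848 for Psmb10, an immunoproteasome subunit, and 0.838 for Ifi47, an interferon-induced GTPase.

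Direct contrasts between young fractions set the myeloid, erythroid and lymphoid branches against each other. GMPs exceeded MEPs in 7 of 10 genes: Cd14, Irak4, Myd88, Tlr1, Tlr2, Tlr4 and Tlr6, where 50.5% of all genes differed. Log2 differences were 1.92 ± 0.09 (SE) for Irak4 (adjusted p = 2.53e-14), 4.01 ± 0.33 for Tlr6 (4.68e-10) and 0.82 ± 0.13 for Myd88 (7.02e-06), though with offsets for GC content and length the Myd88 value was 0.29 and no longer called. For Tlr2 and Tlr4 the size of the difference is uncertain, since only 1 young MEP library had counts. Over alternatives it ran from 3.81 to 12.05 for Tlr2 and from 3.31 to 11.76 for Tlr4, with GMPs always higher. Tlr1 (8 and 0 counts) and Cd14 (0 and 10) were split between the young MEP libraries too.

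CLPs differed from GMPs in 8 of 10 genes, beside 54.1% of all genes. Tlr9 is among the 8, but it entered the test only because it was high in CLPs, so its call is no support. Tlr7 was higher in CLPs by 5.32 ± 0.49 on the log2 scale (adjusted p = 4.12e-09). Cd14 (-2.75 ± 0.42), Tlr4 (-1.67 ± 0.39), Tlr2 (-1.30 ± 0.32), Tlr6 (-1.13 ± 0.26), Irak4 (-1.05 ± 0.09) and Myd88 (-0.48 ± 0.12) were lower in CLPs. Without the first young GMP library 4 of these calls were left (Cd14, Irak4, Tlr6 and Tlr7), and without the first young CLP library 5 (Cd14, Irak4, Myd88, Tlr7 and Tlr9). MPP3 and MPP4, which differ in the gate by Flt3, differed in 1 of 10 genes, beside 5.78% of all genes: Tlr7 was lower in MPP3 by 2.69 ± 0.41 (adjusted p = 9.95e-05), with 5.35 and 5.19 CPM against 33.8 and 34.4 in MPP4.

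Age changed few of these transcripts within a fraction. Of the 80 tests of a gene in a fraction, 3 were called at an adjusted p under 0.01 and 11 had an adjusted p under 0.05, and all 3 calls were Myd88, higher in aged MPP2, MEPs and CLPs. The other 9 genes were not called in any fraction. The number of the 10 genes called higher and lower was 0 and 0 in HSCs, where 3.74% and 1.66% of all genes were, 0 and 0 in MPP1 (4.71% and 2.09%), 1 and 0 in MPP2 (4.49% and 3.31%), and 0 and 0 in MPP3 (8.14% and 5.79%). It was 0 and 0 in MPP4 (10.3% and 6.27%), 0 and 0 in GMPs (9.93% and 8.97%), 1 and 0 in MEPs (9.08% and 11.7%), and 1 and 0 in CLPs (5.71% and 4.73%). With 10 genes a share near this background is 0 or 1 gene, so the counts do not set the group apart. An unadjusted p under 0.05 was found for 4 of the 10 genes in HSCs, 2 in MPP1, 3 in MPP3, 2 in MPP4 and 0 in GMPs, the fractions without a call by edgeR, and DESeq2 called 1, 0, 0, 1 and 0 there. The 4 in HSCs include Tlr1 (0 and 0 counts in young, 0 and 9 in aged) and Tlr9 (5 and 9 against 0 and 0). No share of all genes was taken for an unadjusted p, for DESeq2 or for an adjusted p under 0.05. These counts therefore have no background to be read against. The median log2 difference, with genes at 0 counts held at their bound, was lowest for MEPs (-0.21) and GMPs (-0.10), lay between -0.05 and 0.04 for the multipotent progenitors, and was highest for HSCs (0.12) and CLPs (0.21), and the medians of all genes lay between -0.04 and 0.02.

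**Figure D2:**
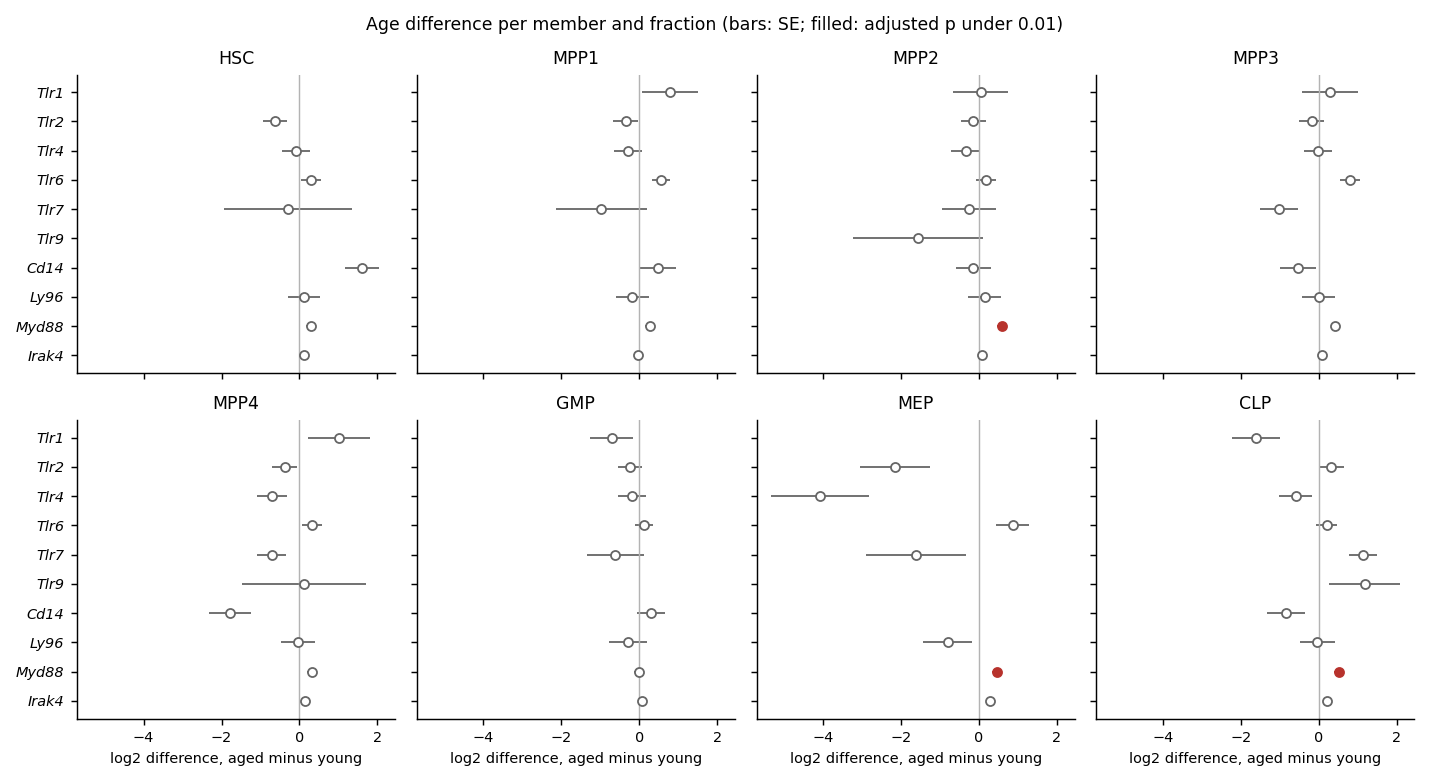
Log2 difference between aged and young cells (horizontal axis) for the 10 genes in each of the 8 fractions, with bars for the SE and filled points for an adjusted p under 0.01. The 8 pairs with 0 counts in both libraries of an age, or at the floor in all, are not drawn. The 3 filled points are Myd88 in MPP2, MEPs and CLPs, at 0.59, 0.46 and 0.51.

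Myd88 was the gene called within fractions. In MPP2 the young libraries had 60.4 and 65.8 CPM and the aged ones 95.3 and 95.4, a log2 difference of 0.59 ± 0.12 (adjusted p = 0.00257). In MEPs the values were 64.2 and 48.5 against 77.4 and 77.7 (0.46 ± 0.13, adjusted p = 0.00791), and in CLPs 74.1 and 68.9 against 113 and 89.8 (0.51 ± 0.13, adjusted p = 0.00657). The duplicates of the 2 ages did not overlap in any of the 3.

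In MPP3 Myd88 went from 71.6 and 70.7 CPM to 92.8 and 97.6 (0.42 ± 0.12, adjusted p = 0.0174), in MPP4 from 68.1 and 76.2 to 86.9 and 93, in MPP1 from 68.9 and 76.1 to 89.6 and 86, and in HSCs from 94.1 and 81.9 to 100 and 115. Aged duplicates lay above both young ones in 7 of 8 fractions. GMPs were the exception, at 111 and 88.3 CPM in young and 98.5 and 99.5 in aged mice (-0.01 ± 0.12). Whether the age difference of Myd88 varied over the 8 fractions was not called (adjusted p = 0.13), and the difference in GMPs minus the mean of MPP1 to MPP4 was -0.41 ± 0.14 (adjusted p = 0.0239).

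Averaged over the 8 fractions, Myd88 was 0.36 ± 0.04 higher in aged cells (adjusted p = 1.23e-06), and over alternatives the value ran from 0.32 to 0.39. The calls in single fractions were less firm. Each of them was lost when 1 library was left out: in MPP2 with any of the 4 libraries (adjusted p 0.0106 to 0.0344), in MEPs without the second young or either aged library, and in CLPs without either young or the first aged library. Exons of Myd88 share up to 290 bases with Acaa1a, a peroxisomal thiolase on the opposite strand. Acaa1a differed by 0.10 ± 0.08 in MPP2 (adjusted p = 0.477), 0.28 ± 0.08 in MEPs (0.0109) and 0.32 ± 0.08 in CLPs (0.00735, called higher), and since no use of strand was stated the part of shared reads in the Myd88 values was not tested.

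A promoter window of Myd88 is shown because it belongs to the member with age calls. The window, from RefSeq (GRCm38.p6), runs from 250 bases before to 50 after the RefSeq start, at chr9:119339969-119340268 on the minus strand. It lies inside the gene as GENCODE has it, whose 5' end is at 119341411. Capitals mark matches to GAAANNGAA (an interferon regulatory factor motif) and, downstream, to GGANTTTCC on the other strand (an NF-kB motif).
Myd88: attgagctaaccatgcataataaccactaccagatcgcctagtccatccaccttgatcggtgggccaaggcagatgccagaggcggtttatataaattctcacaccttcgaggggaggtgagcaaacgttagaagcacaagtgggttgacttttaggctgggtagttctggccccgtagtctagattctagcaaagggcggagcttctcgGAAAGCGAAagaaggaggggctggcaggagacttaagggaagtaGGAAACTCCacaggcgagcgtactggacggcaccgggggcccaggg
Of 32851 promoters of this length, 8.56% held the first motif on either strand and 1.25% the second. RefSeq windows were at hand for 6 of the 10 genes (Tlr1, Tlr2, Tlr6, Tlr9, Myd88 and Irak4) with 8 windows in all, of which 2 held the first motif (Tlr6 and Myd88) and 1 the second.

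**Figure D3:**
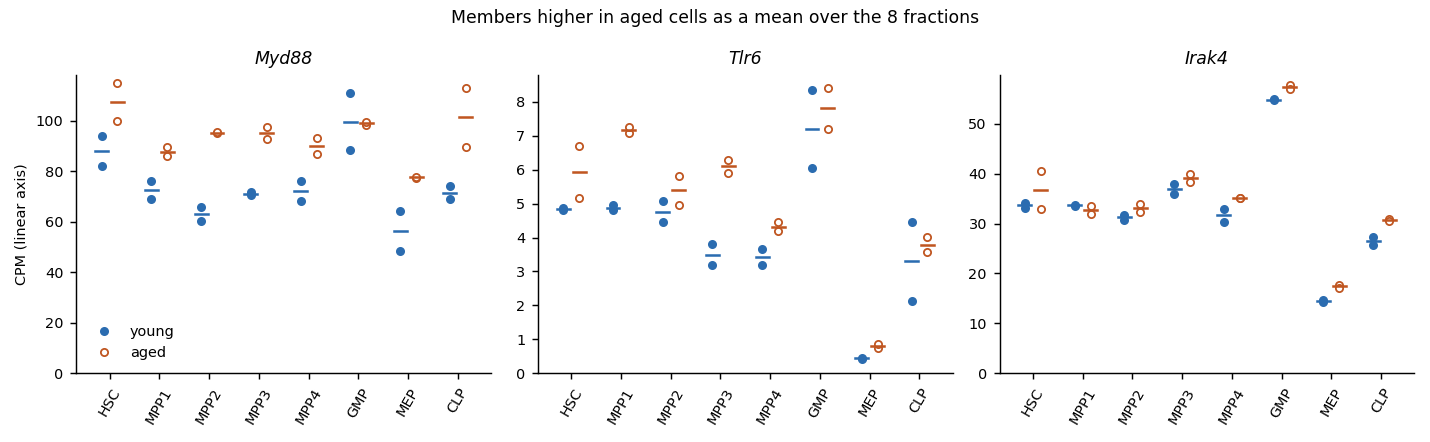
CPM (linear axis from 0) of Myd88, Tlr6 and Irak4 in each library by fraction, young filled and aged open, with short lines at the means. Aged Myd88 duplicates lie above the young ones in 7 of 8 fractions, those of Tlr6 in 5 and those of Irak4 in 6.

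As a mean over all 8 fractions, 3 of the 10 genes were higher in aged cells (16.2% of all genes were) and 1 was lower (13% were). Besides Myd88, Tlr6 was higher by 0.42 ± 0.10 (adjusted p = 0.00175) and Irak4 by 0.12 ± 0.03 (adjusted p = 0.00325). The lowest adjusted p of Tlr6 was that of MPP3, where 3.19 and 3.8 CPM in young libraries faced 6.3 and 5.9 in aged ones (0.80 ± 0.25, adjusted p = 0.0249), and in MPP1, with 4.8 and 4.96 against 7.08 and 7.27. Its aged duplicates were above the young in HSCs, MPP1, MPP3, MPP4 and MEPs and overlapped in MPP2, GMPs and CLPs.

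Irak4 differed by -0.04 to 0.27 in single fractions, the widest being MEPs with 14.6 and 14.3 CPM in young and 17.7 and 17.1 in aged libraries (0.27 ± 0.09, adjusted p = 0.0313). Its mean call was lost with DESeq2 size factors (0.10, adjusted p = 0.0112), without a filter on low counts (0.09, 0.0435), with DESeq2 (0.10, 0.0115) and without the first aged GMP library (0.11, 0.0111) or the second aged MEP library (0.09, 0.0326). Exons of Irak4 share up to 395 bases with Twf1 on the opposite strand, which was not called in any fraction.

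Tlr2 and Tlr4 pointed the other way. The mean of Tlr4 was -0.79 ± 0.20 (adjusted p = 0.00358), but without the first young MEP library, the one with 50 counts, it was 0.15 (adjusted p = 0.752). Tlr2 was at -0.47 ± 0.15 (adjusted p = 0.0187, not called) and at 0.44 without that library. Because the young MEP duplicates disagreed, the mean over the other 7 fractions was fitted with the 4 MEP libraries left out, a choice made after seeing the data. Tlr4 then differed by -0.32 ± 0.08 (adjusted p = 0.0026) and Tlr2 by -0.23 ± 0.06 (adjusted p = 0.00421), both called lower, Myd88 (0.34 ± 0.04, adjusted p = 2.04e-06) and Tlr6 (0.35 ± 0.09, adjusted p = 0.00535) were called higher, and Irak4 (0.10 ± 0.03, adjusted p = 0.0253) was not called.

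In single fractions neither was called by edgeR. DESeq2 called both lower in MEPs (Tlr2 at an adjusted p of 0.00201 and Tlr4 at 0.00173) and the mean of Tlr2 (-0.49, adjusted p = 5.59e-05), and without the second young MEP library, the one at 0 counts, edgeR called both lower in MEPs too. Tlr2 was lower in both aged libraries than in both young ones in 5 fractions, among them HSCs (40.6 and 38.5 CPM against 30.6 and 21.1, -0.62 ± 0.31, adjusted p = 0.239) and MPP4 (18.1 and 22.9 against 15.7 and 15.7). CLPs went the other way, from 15.5 and 16 to 18.2 and 21.1 CPM. For Tlr4 this held in 4 fractions, MPP1, MPP2, MPP4 and CLPs, with MPP4 at 21.2 and 21.8 against 13.9 and 12.4 (-0.70 ± 0.38, adjusted p = 0.185). Fitted on the 4 MPP4 libraries alone, Tlr4 (adjusted p = 0.00764) and Tlr7 (-0.70, adjusted p = 0.0042) were called lower there.

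A promoter window of Tlr6 is shown because Tlr6 was the receptor called higher with age in the mean over fractions. It lies at chr5:64959117-64959416 on the minus strand, inside the gene as GENCODE has it, and a second RefSeq start lies at the window chr5:64959999-64960298. Capitals mark, from left to right, a match to TGTGGTT (RUNX), a stretch with 2 overlapping matches to GAAANNGAA on the other strand, and a match to AGGAAGT on the other strand (PU.1 and other ETS factors).
Tlr6: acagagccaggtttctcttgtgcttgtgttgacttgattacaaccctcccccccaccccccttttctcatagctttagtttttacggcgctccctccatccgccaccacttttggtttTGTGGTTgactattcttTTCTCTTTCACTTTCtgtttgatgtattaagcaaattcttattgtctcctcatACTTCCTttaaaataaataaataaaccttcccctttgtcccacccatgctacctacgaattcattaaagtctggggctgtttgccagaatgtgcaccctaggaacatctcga
AGGAAGT was found on either strand in 4 of the 8 windows, those of Tlr1, Tlr6 (both) and Tlr9, and in 9.35% of all promoters, TGTGGTT in 5.27%. A match is a string of letters, not a bound site.

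The age difference of the co-receptor Cd14 was not the same in all fractions. Whether it varied over the 8 fractions was tested with 1 F-test, which called 1 of the 10 genes, Cd14 (adjusted p = 0.00404), beside 34.9% of all genes. In HSCs the young libraries had 20 and 41 counts and the aged 69 and 117, or 1.62 and 2.67 against 5.39 and 7.84 CPM (log2 difference 1.61 ± 0.43, adjusted p = 0.019). In MPP4, 39 and 35 counts faced 10 and 10, or 2.41 and 2.66 against 0.742 and 0.723 CPM (-1.78 ± 0.53, adjusted p = 0.0171). Neither passed 0.01 by itself with edgeR, while DESeq2 called both (adjusted p 0.000119 and 0.000464).

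Elsewhere Cd14 in aged libraries was above in MPP1 and GMPs (18.2 and 21.4 against 25.9 and 23 CPM), below in CLPs (2.96 and 2.92 against 1.85 and 1.41) and overlapping in MPP2 and MPP3. Young MEPs had 0 and 10 counts of it, and neither aged MEP library had any. The F-test was no longer called without the first young HSC, the second aged HSC or either aged MPP4 library, and without the 4 MEP libraries its adjusted p was 3.15e-04. In HSCs the 8 neutrophil markers summed to 133 and 142 CPM in young and 309 and 379 in aged libraries, with none at 0. Of these, 6 were higher in the aged mean, such as S100a8 (13.8 to 59.1), and Mpo (61.7 to 47.3) and Elane (17.2 to 7.45) were lower. In HSCs the 10 monocyte and macrophage markers summed to 52.3 and 56.4 against 67.6 and 68.3. Of these, Itgam went from 11.4 to 33.9 CPM in the mean, while Csf1r (2.08 to 1.1), C1qa (7.36 to 3.84), Fcgr1 (0.626 to 0.167) and Ms4a6c (15.4 to 9.97) were lower. The others, such as Cd68 (12.4 to 12.8), were slightly higher in the aged mean. In MPP4 the neutrophil markers were at 656 and 693 against 607 and 636, and the monocyte and macrophage markers at 136 and 138 against 142 and 132. Their part in the Cd14 values was not tested.

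Ly96 had log2 differences of -0.81 to 0.14, none called, and duplicates of the 2 ages overlapping in 7 of 8 fractions. In HSCs it had 5.83 and 6.39 CPM in young and 5.79 and 7.5 in aged libraries. With 14 and 0 counts in the 2 aged MEP libraries, the value there rests on 1 library: without the first aged MEP library, the one with counts, edgeR called Ly96 lower in MEPs (adjusted p = 0.000413) and in the mean over fractions (adjusted p = 0.00163). Tlr1 was not called either. In GMPs it had 12.2 and 8.36 CPM in young against 4.65 and 7.93 in aged libraries, in CLPs 4.19 and 3.73 against 1.62 and 0.966 (-1.61 ± 0.62, adjusted p = 0.0815), and in MPP1 and MPP4 both aged libraries lay above the young ones at levels up to 1.28 CPM.

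Tlr7 rose in aged CLPs relative to the multipotent progenitors. In CLPs the young libraries had 756 and 733 counts and the aged 2133 and 1366, or 62.1 and 59.4 against 165 and 102 CPM, a log2 difference of 1.13 ± 0.35 (adjusted p = 0.0282). In MPP4, 33.8 and 34.4 CPM faced 21 and 20.8 (-0.71 ± 0.37, adjusted p = 0.172), and in MPP3, 5.35 and 5.19 faced 2.88 and 2.26 (-1.03 ± 0.49, adjusted p = 0.141). The duplicates did not overlap in any of the 3, and the direction in CLPs was opposite to that in MPP3 and MPP4. In MPP1 (4 and 10 counts in young, 4 and 3 in aged) and MPP2 (26 and 10 against 13 and 20) the ages overlapped at low counts. Their log2 differences, -0.97 ± 1.16 and -0.25 ± 0.69, are also part of the mean of MPP1 to MPP4.

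The age difference in CLPs minus the mean of MPP1 to MPP4 was 1.87 ± 0.51 for Tlr7 (adjusted p = 0.00708), the 1 of 10 genes called there, beside 22.6% of all genes. This call was just inside the threshold, and 15 of the 20 alternatives that left out 1 library, and DESeq2 (1.91, adjusted p = 0.0632), put it outside, with values from 1.48 to 2.18. In the same contrast for GMPs, which uses the same MPP libraries, edgeR called 0 of 10 genes, beside 26.6% of all genes, and DESeq2 called 0. There 2 genes (Myd88 and Tlr9) had an unadjusted p under 0.05, a level at which no share of all genes was taken. Tlr9 had 0 and 0 counts in young and 4 and 0 in aged GMPs. DESeq2 called Tlr1 and not Tlr7 in the contrast with CLPs.

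Tlr9 had 25 and 25 counts in young and 72 and 49 in aged CLPs (2.05 and 2.03 against 5.56 and 3.64 CPM, 1.17 ± 0.91, adjusted p = 0.421). Both aged libraries were above the young ones, by a margin that the test did not call at these counts. Of the 32 libraries 18 had 0 counts of Tlr9, none of them of CLPs. In aged CLPs its level was at least 21.1-fold higher than the floor in aged HSCs. Since Tlr9 passed the filter through the CLP libraries, this describes its level and is no support for a restriction to CLPs.

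Markers of dendritic cells moved in CLPs beside both genes. Siglech, a surface receptor of plasmacytoid dendritic cells, went from 1071 and 1056 to 3155 and 2089 CPM, Ccr9 from 242 and 243 to 755 and 505, and the factors Irf8 and Tcf4 from 3168 and 3267 to 5307 and 4120 and from 471 and 452 to 871 and 670. Summed over all 9 dendritic markers the level was 5524 and 5584 CPM in young and 11309 and 8204 in aged CLPs, with none of the 9 at 0. Clec9a, of conventional dendritic cells, went from 9.7 and 8.99 to 48.9 and 32.5 CPM. Others differed: Itgax lay at 94.5 to 98.9 CPM in the 4 libraries, and Xcr1, also of conventional dendritic cells, had 7.07 and 6.56 against 3.4 and 3.2.

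Within the aged pair, the first library was higher than the second for Tlr7, Tlr9, Siglech, Cd209d, Ccr9, Bst2, Irf8, Tcf4 and Clec9a alike. Per 1000 counts of Siglech the libraries held 58 and 56.3 counts of Tlr7 in young and 52.2 and 48.6 in aged CLPs, and 1.92 and 1.92 against 1.76 and 1.74 of Tlr9. Per 1000 counts of Irf8 they held 19.6 and 18.2 of Tlr7 in young against 31 and 24.6 in aged CLPs. For Tlr9 the values were 0.648 and 0.62 against 1.05 and 0.884. Per 1000 counts of Bst2 they were 145 and 139 against 174 and 162 for Tlr7, and 4.79 and 4.74 against 5.89 and 5.82 for Tlr9. Per 1000 counts of Tcf4 they were 132 and 131 against 189 and 151 for Tlr7, and 4.36 and 4.48 against 6.39 and 5.43 for Tlr9. The monocyte and macrophage markers stood at 1187 and 1235 CPM in young and 2788 and 2455 in aged CLPs. In the latter 1 of 10 was at 0. Higher in the aged mean were Mpeg1 (702 to 1654), Ly6c2 (220 to 451), Cd68 (107 to 292), Ccr2 (39.8 to 116) and Csf1r (56.9 to 59.6). Lower were Itgam (26.4 to 21.6), Ms4a6c (32.2 to 26.7), C1qa (18.7 to 0.232), Adgre1 (7.35 to 0.186) and Fcgr1 (0.205 to 0). The B lineage markers stood at 2875 and 2945 against 1357 and 1346. The part of these cells in the differences was not tested. Cd209d was at 0 counts in every library of the other fractions, and Siglech was at most 0.982 CPM as a mean there. These 2 markers were thus near 0 in MPP4, where Tlr7 was at means of 34.1 CPM in young and 20.9 in aged mice. Young and aged means in MPP4 were 15.8 and 5.51 CPM for Ccr9, 4.19 and 3.91 for Itgax and 2.69 and 2.2 for Xcr1. They were 145 and 169 for Tcf4, 70.6 and 100 for Irf8, 68.7 and 88 for Bst2 and 0.0761 and 0.185 for Clec9a. All 9 markers summed to 299 to 317 CPM in young MPP4 and 361 to 378 in aged. The part of dendritic cells in the Tlr7 values of MPP4 was not tested.

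**Figure D4:**
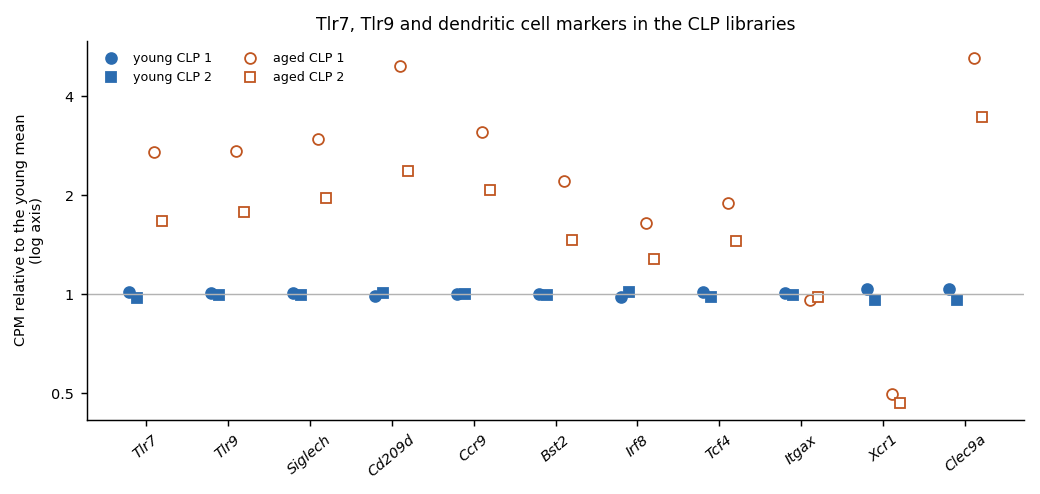
CPM of Tlr7, Tlr9 and 9 dendritic cell markers in the 4 CLP libraries, each divided by the mean of the 2 young libraries (log axis, young filled, aged open, circles for replicate 1 and squares for replicate 2). Tlr7 lies at 2.71 and 1.67 in the aged libraries, Tlr9 at 2.73 and 1.78 and Siglech at 2.97 and 1.96, Clec9a at 5.23 and 3.47, while Itgax lies near 1 and Xcr1 lies at 0.499 and 0.469.

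The Tlr9 promoter is shown because Tlr9 had its highest counts in CLPs, the libraries through which it passed the filter. It lies at chr9:106222348-106222647 on the plus strand. Capitals mark CACCTG, the reverse complement of CAGGTG (bound by E proteins such as the product of Tcf4), and a stretch where ACTTCCT, the reverse complement of AGGAAGT, overlaps with a match to TTNCNCAA (C/EBP).
Tlr9: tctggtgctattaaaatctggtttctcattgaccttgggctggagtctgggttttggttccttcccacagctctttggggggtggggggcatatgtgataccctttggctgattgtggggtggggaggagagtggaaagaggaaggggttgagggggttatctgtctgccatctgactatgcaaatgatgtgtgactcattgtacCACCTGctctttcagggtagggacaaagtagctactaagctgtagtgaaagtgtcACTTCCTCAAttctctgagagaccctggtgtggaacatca
CAGGTG was found in 3 of the 8 windows (Tlr1, Tlr2 and Tlr9) and in 20.2% of all promoters, TTNCNCAA in 1 window and in 13.3% of all.

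The rest of the pathway was read from 3 lists: other receptors and their cofactors (13 genes, 12 tested), signalling proteins below the receptors (30, all tested) and genes that TLR signals are known to induce in myeloid cells (22, 21 tested). These lists were chosen with results of these data already known. Among receptors and cofactors, 4 genes rose in aged CLPs (Tlr12, Cd180, Ly86 and Unc93b1) and 0 fell, where 5.71% of all genes rose, with a median log2 difference of 0.36 beside 0 for all genes. In aged MEPs 4 fell (Tlr12, Ly86, Lbp and Unc93b1) and 0 rose, beside 11.7% of all genes that fell, and in MPP3 3 fell (Ly86, Cd36 and Unc93b1), beside 5.79%. Other fractions had 0 to 2 calls: 1 rose in HSCs, beside 3.74% of all genes, and 2, 1 and 1 fell in MPP2, MPP4 and GMPs. Of all genes 3.31%, 6.27% and 8.97% fell there.

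Unc93b1, which carries TLR7 and TLR9 to endosomes, had 1108 ± 31.8 CPM in young and 1708 ± 319 in aged CLPs (0.62 ± 0.10, adjusted p = 9.88e-05) and fell in MPP2 (-0.43 ± 0.10), MPP3 (-0.46 ± 0.10) and MEPs (22.6 ± 0.23 to 3.71 ± 0.602 CPM). Ly86, which encodes the MD-2 homologue MD-1, rose in CLPs (168 ± 1.72 to 295 ± 57.2 CPM, adjusted p = 2.76e-04) and fell in MPP3 (9.52 ± 0.892 to 2.6 ± 0.451), GMPs (166 ± 0.441 to 107 ± 15.5) and MEPs, where it was at 0 counts in aged libraries. The scavenger receptor Cd36, a co-receptor for TLR2 and TLR6, fell in MPP2 (2.57 ± 0.252 to 0.863 ± 0.0688 CPM), MPP3 (5.82 ± 0.119 to 0.353 ± 0.12) and MPP4. In MEPs the falls stood beside the B lineage markers given above, whose part was not tested.

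Of the 30 signalling genes, 2, 4, 5 and 4 fell in MPP1, MPP2, MPP3 and MPP4, while 0, 0, 1 and 1 rose. Of all genes 2.09%, 3.31%, 5.79% and 6.27% fell there, and 4.71%, 4.49%, 8.14% and 10.3% rose. In CLPs 6 rose (Irak2, Irf3, Irf5, Irf7, Nfkb1 and Pik3ap1) and 1 fell (Irak3, an inhibitor of the pathway), beside 5.71% and 4.73% of all genes. In GMPs 3 rose and 1 fell, beside 9.93% and 8.97% of all genes. In MEPs 2 rose and 4 fell, beside 9.08% and 11.7%. With 30 genes the counts in GMPs and MEPs lay near these shares or below them. In HSCs there was no call in either direction, where 3.74% of all genes rose and 1.66% fell. Medians of the list lay between -0.15 and 0.07. Irak2, a kinase of the same complex as IRAK4, fell from 26.7 ± 2.82 to 15 ± 2.78 CPM in MPP1 (-0.83 ± 0.15, adjusted p = 4.95e-04) and from 24.3 ± 0.978 to 12.4 ± 2.14 in MPP4 (-0.97 ± 0.15, adjusted p = 5.09e-05), and rose from 28.4 ± 1.72 to 46.4 ± 10.2 in CLPs. Pik3ap1, which links TLRs to phosphoinositide 3-kinase, fell in MPP1 to MPP4 by 0.57 to 0.76 on the log2 scale and rose in CLPs (287 ± 8.99 to 428 ± 117 CPM). Irf5, a transcription factor downstream of MyD88, fell in MPP2, MPP3 and MPP4 by 0.68 to 0.75 and rose in CLPs by 0.72 ± 0.16 (adjusted p = 0.00279). In MPP2 these 3 genes fell while Myd88 rose, and in CLPs all 4 rose.

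Of the 21 induced genes, 7 fell in MPP3 and 7 in MPP4 and 8 in CLPs, with 0 rising in any of them, where 5.79%, 6.27% and 4.73% of all genes fell. In MPP2 4 fell and in MPP1 2, beside 3.31% and 2.09% of all genes. In HSCs 1 rose (Lcn2) and 0 fell, beside 3.74% that rose and 1.66% that fell. The median in HSCs was 0.40, or 0.27 with genes at 0 counts at their bound. Medians were -0.57 in MPP3, -0.73 in MPP4 and -1.48 in CLPs. The chemokine gene Ccl4 had 267 ± 19.9 CPM in young and 63.6 ± 3.18 in aged MPP4 (-2.07 ± 0.19, adjusted p = 1.34e-07), Ccl3 had 314 ± 21 and 72.7 ± 1.73 (-2.11 ± 0.13, adjusted p = 1.72e-09) and Ptgs2, the prostaglandin synthase, 144 ± 23.9 and 43.2 ± 1.28 (-1.74 ± 0.21, adjusted p = 6.30e-06). In GMPs 6 rose and 0 fell, beside 9.93% of all genes that rose, among them Ccl3 (0.424 ± 0.307 to 10.1 ± 1.42 CPM, adjusted p = 7.34e-10), Ccl4 (0.561 ± 0.0121 to 4.46 ± 0.364) and Tnf. The median there was 1.24 as fitted and 0.41 with the 7 genes at 0 counts at their bound. In CLPs the basophil and mast cell markers went from 1737 and 1785 CPM to 8.26 and 12 and the neutrophil markers from 1876 and 1922 to 351 and 338, and in MPP3 the latter from 4226 and 4478 to 1893 and 1927. Their part in the falls was not tested.

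**Figure D5:**
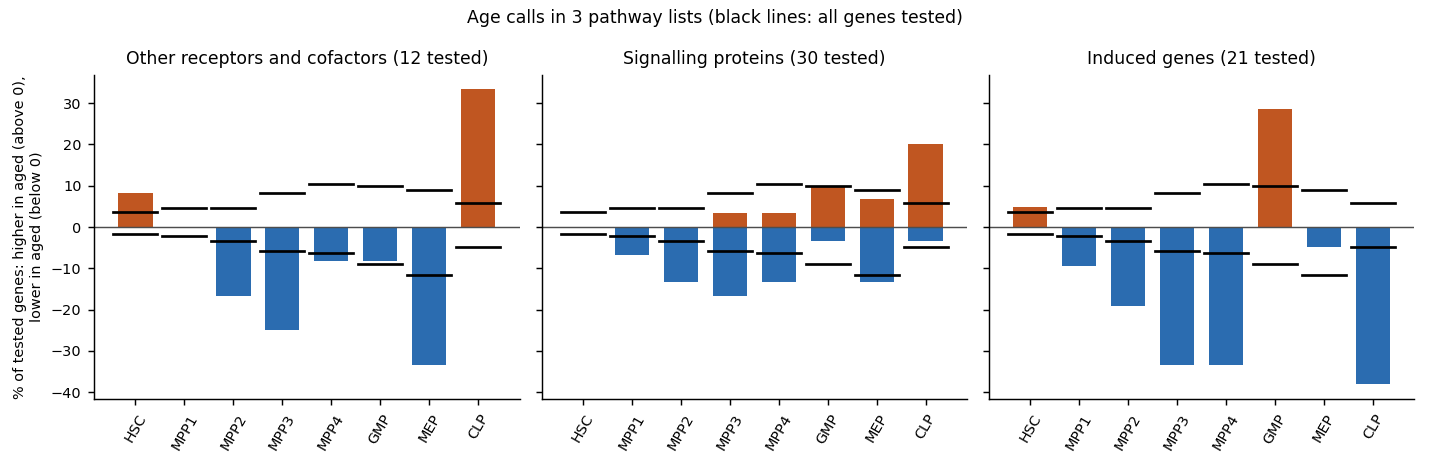
Share of the tested genes of each of the 3 lists that were called higher (bars above 0) or lower (below 0) in aged cells, in percent, for each of the 8 fractions, with black lines at the share among all genes tested. Of the receptors and cofactors 4 of 12 rise in CLPs and 4 of 12 fall in MEPs, and of the induced genes 7 of 21 fall in MPP3 and in MPP4, 8 of 21 fall in CLPs and 6 of 21 rise in GMPs.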

How the data were processed

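The authors mapped single-end reads to mm10 with TopHat2 (2.0.13) and Bowtie2 (2.1.0), and the submitters' notes also name StringTie. Use of strand was not given in the sources used here. The deposited table of raw counts, whole numbers of reads per gene, was used as it stands. The authors' normalized table and their comparison tables, which hold fold changes and p-values, were not used. All 32 libraries entered 1 edgeR (4.0.16, R 4.3.3, limma 3.58.1) quasi-likelihood fit with a mean per group and TMM, on 14154 genes kept by edgeR's filter, with 16 residual degrees of freedom. P-values were adjusted by Benjamini-Hochberg over all genes tested and called under 0.01. The SE is the log2 difference divided by the square root of F. The scripts were tested on simulated data. Alternatives were DESeq2 (1.42.0), its size factors, no filter, a replicate block, offsets for GC content and length, other thresholds, the 4 libraries of a fraction alone, and leaving out each library. Gene positions and exon lengths are from GENCODE M21 and promoters from RefSeq, both on GRCm38. All 10 members are named. From each list the 3 genes called one way in the most fractions are named, and the genes most like a member by Pearson's r. The members and lists were chosen with earlier results of these data known.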

Additional observations from a re-analysis of the deposited data

Results flagged for a closer look

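The age difference of Cd14 was not the same in all 8 fractions by the F-test of the difference itself (adjusted p = 0.00404, edgeR quasi-likelihood test), with both aged libraries above both young ones in HSCs, MPP1 and GMPs and below them in MPP4 and CLPs. The age difference of Tlr7 in CLPs minus its mean over MPP1 to MPP4 was 1.87 on the log2 scale (SE 0.51, adjusted p = 0.00708, edgeR quasi-likelihood test), with aged libraries above young ones in CLPs and below in MPP3 and MPP4. In MPP1 and MPP2 the ages overlapped at low counts of Tlr7. With 2 libraries a group, no check for a single library far from the others of its group could be made.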

How the results depend on the processing

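The number of the 10 genes called was 0 in HSCs, MPP3, MPP4 and the GMP contrast with MPP1 to MPP4, 1 in MPP2, MEPs, CLPs, the F-test of varying age differences and the CLP contrast with MPP1 to MPP4, 4 in the mean over fractions and 8 between young CLPs and GMPs. At an adjusted p under 0.05 it was 1 in HSCs, 2 in MPP3, 1 in MPP4, 4 in MEPs, 2 in CLPs, 2 in the F-test, 2 in the CLP contrast and 1 in the GMP contrast. With an absolute log2 difference of at least 1 it was 0 in MPP2, MEPs, CLPs and the mean. In MEPs it was 0 with DESeq2 size factors and 0 without a filter. With offsets for GC content and length it was 1 in MPP3, 2 in MEPs and 1 in the GMP contrast, the same with the replicate block added. With the 4 libraries of a fraction alone it was 1 in MPP3, 2 in MPP4, 0 in MEPs and 0 in CLPs. DESeq2 gave 1 in HSCs, 1 in MPP4, 3 in MEPs and 3 in the F-test. With the MEP libraries left out, chosen after seeing the data, the F-test gave 2. The cause of these changes was not tested, and shares of all genes were taken at the main setting only.

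Leaving out 1 library gave 0 in MPP2 with each of its 4 libraries, 0 to 2 in MEPs, 0 to 1 in CLPs, 0 to 5 in the F-test (5 without the second young MEP library), 4 to 6 between CLPs and GMPs, 0 to 1 in the CLP contrast and 0 to 1 in the GMP contrast. The mean of Tlr4, -0.79, ran from -1.25 to 0.15, and reversed without the first young MEP library (0.15).

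The replicate block alone left all counts of calls the same, for example 4 in the mean over fractions. Deviations of young and aged libraries with the same number, taken within a fraction, correlated at -0.0557 to 0.0704. This cannot show whether libraries of different fractions at one age came from the same sort, which was not tested. Over all alternatives, 260 counts of calls were equal or close to the main count and 63 moved further from it. Of the log2 differences, 2145 stayed on their side of the threshold, 39 passed it, 57 no longer did and 1 reversed. Low counts limit Tlr1, Tlr9 and, in MEPs, all receptors.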
